A study of Mus musculus with 3 samples.

Results

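The nuclear-encoded subunits of the mitochondrial respiratory chain and of ATP synthase were examined in the cytosolic RNA of stimulated mouse macrophages. Members were taken by symbol: every gene with a transcript annotated as protein coding whose name begins with Ndufa, Ndufb, Ndufc, Ndufs or Ndufv, Uqcr, Cox4, Cox5, Cox6, Cox7 or Cox8, or Atp5, or is Sdha, Sdhb, Sdhc or Sdhd. This gave 94 genes of 21901 with a protein-coding transcript. Of these, 84 are subunits of complexes I to V. The other 10 share only the name: 8 Ndufaf assembly factors of complex I, Cox7a2l, which helps complexes III and IV to join into supercomplexes, and Atp5s, an ATP synthase factor. The symbol Atp5o stands for 2 gene entries, so the 94 genes carry 93 symbols.

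The libraries form a single group of 3, labelled biological replicates 1 to 3. All hold ribosomal-RNA-depleted total RNA of the cytosolic fraction of primary macrophages of strain C57BL/6J (BMDM in the labels, bone marrow-derived macrophages), treated for 25 minutes with lipid A at 100 ng/ml. Lipid A is the membrane anchor of bacterial lipopolysaccharide and the part that the receptor TLR4 recognises. All 3 libraries carry the same donor record, sex and age were not collected, and nothing in the labels says whether the cultures were separate. Unstimulated cells, other times and other fractions were not analysed here, so every value below is a level in stimulated cells, the spread is that between 3 libraries, and no response to lipid A was measured. With 3 libraries of a single group a two-sided exact sign-flip test cannot go below 0.25, so no p-value is given.

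Complex I (NADH dehydrogenase) and complex II (succinate dehydrogenase) pass electrons to ubiquinone, complex III (cytochrome bc1) passes them on to cytochrome c, and complex IV (cytochrome c oxidase) gives them to oxygen. Complexes I, III and IV pump protons across the inner membrane, and complex V (ATP synthase) uses the gradient to make ATP. A small set of subunits is encoded by mitochondrial DNA, and the rest, described here, are translated in the cytosol and imported. In macrophages the chain also supplies reactive oxygen species, and cells that receive lipopolysaccharide for hours shift towards glycolysis.

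The tables held 52956907, 43547422 and 38608503 counts on gene rows in replicates 1, 2 and 3. A count of 3 in these libraries corresponds to 0.0566 to 0.0777 CPM (a count divided by the library size and put on a common scale). Levels are given as TPM (counts per effective length, scaled to the same sum in each library), which allows genes to be compared within a library. Nuclear protein-coding genes took 22.7, 22.9 and 29.8% of all TPM, so a TPM in replicate 3 stands on a larger coding share. All 10 macrophage markers were at 1 TPM or more in every library, while 0 of 11 skeletal muscle and heart markers, 0 of 4 brown fat markers and 0 of 7 testis germ cell markers were. Of 6 neutrophil markers 4 passed, with summed levels of 33.3, 54.8 and 39.9 TPM in replicates 1, 2 and 3.

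Of the 94 members, 86 were at 1 TPM or more in every library, against 41.5% of the 21888 nuclear protein-coding genes. The remaining 8 were below 1 TPM in every library, and 7 of them are the tissue isoforms of complex IV subunits described below. The last is the second Atp5o entry, which had 0 counts in each library. The members held 0.407, 0.371 and 0.431% of the gene counts and 1.62, 1.48 and 1.64% of the TPM of nuclear protein-coding genes. The median detected member stood at 38.2 ± 7.19 TPM (SD, n = 3), where the median of all 9077 detected nuclear coding genes was 7.79 ± 1.27 TPM. Within libraries the difference was 2.28 ± 0.07 on the log2(TPM + 0.1) scale, which is 4.84-fold. For the detected subunits alone it was 2.39 ± 0.09 (5.26-fold).

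By the median of their detected subunits the complexes stood in the same order in every library. Among subunits at 1 TPM or more, the median was 83.1 ± 18.8 TPM for complex IV (12 of 19 subunits), 60.8 ± 12.0 TPM for complex III (8 of 8), 59.4 ± 13.3 TPM for complex V (16 of 17), 38.8 ± 6.63 TPM for complex II (4 of 4) and 25.6 ± 4.23 TPM for complex I (36 of 36). Set against the median of all detected subunits within each library, complex IV was higher by 0.98 ± 0.07 in log2 and complex I was lower, at -0.70 ± 0.04. Complexes III (0.55 ± 0.04) and V (0.50 ± 0.07) were neighbours in this order and did not differ beyond the spread of complex V. In replicate 3 their medians were 74.25 and 74.16 TPM. Cyc1, a nuclear complex III gene that the naming rule does not take, is not counted here and had 10.04, 11.3 and 14.1 TPM. The order of complexes III and V with Cyc1 counted was not tested. The order depends on the summary: with means complex V (0.71) was above complex IV (0.63), with the undetected subunits included complex IV (0.16) was below complexes III (0.67) and V (0.55), and on coding transcripts complex V (0.61) was above complex III (0.53). Complex II was closest to the middle, at -0.10 ± 0.05. Short genes tended to have higher TPM: over the 76 detected subunits Spearman's rho between level and effective length was -0.46, against -0.15 over all 9077 detected coding genes, and the median effective length was 480 against 2366 bases. This correlation is across genes, which are not independent, and how far the effective length enters the order of the complexes was not tested.

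**Figure D1:**
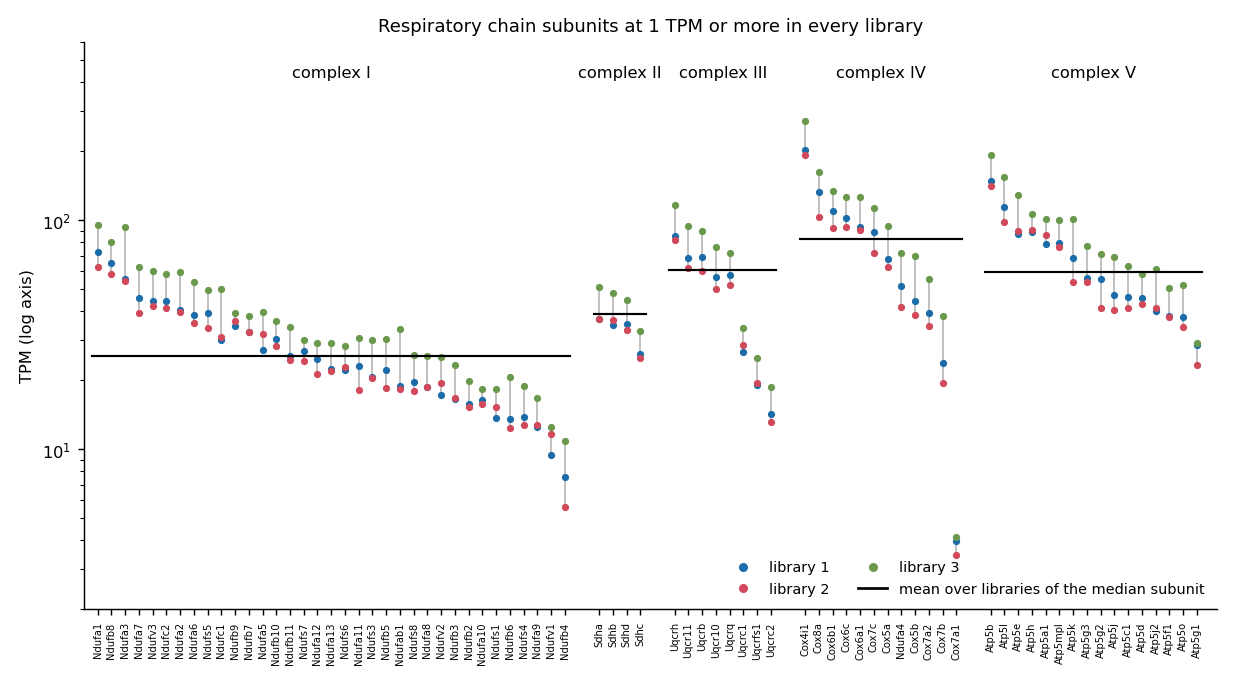
TPM of the subunits at 1 TPM or more in every library that are reported singly, on a log axis, grouped by complex and ordered by mean level, with 1 point per library, a grey line over their range and a black line for the mean over libraries of the median over all such subunits of the complex. Complex IV has the highest median, at 83.1 TPM, and complex I the lowest, at 25.6 TPM, and replicate 3 is the highest point of each gene shown.

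In complex I, the accessory subunits that surround the catalytic core spanned a wide range. The most abundant was Ndufa1, a small membrane subunit, with 73.0, 62.7 and 95.2 TPM in replicates 1, 2 and 3. It was followed by Ndufb8 with 65.2, 58.2 and 80.5 TPM and Ndufa3 with 55.6, 54.5 and 93.8 TPM. By gene TPM Ndufa3 and Ndufb8 had the same mean of 68.0 TPM, and their order changed with the library. Of the TPM of Ndufa3 56.2 ± 1.6% lay on coding transcripts, against 96.3 ± 2.6% for Ndufb8. The coding transcript Ndufa3-201 had 31.35, 31.14 and 50.83 TPM, below the 59.96, 56.23 and 77.07 TPM of Ndufb8-201 in each library. Ndufa3-204, annotated for nonsense-mediated decay, had 23.87, 22.93 and 42.35 TPM. The lowest was Ndufb4, with 7.57, 5.60 and 10.9 TPM, which does not overlap with any value of Ndufb8 or Ndufa1. Between the highest and the lowest subunit the mean differed 9.6-fold.

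The 7 nuclear core subunits, which carry the flavin, the iron-sulfur clusters and the ubiquinone site, were at 1 TPM or more in every library. Ndufv1, which binds NADH and the flavin, was the lowest of them with 9.41, 11.7 and 12.4 TPM. The median core subunit was below the median accessory subunit in each library, by -0.39, -0.33 and -0.41 in log2, a mean of -0.38 ± 0.04. The core genes are longer (median effective length 1053 against 449 bases), and within the 29 accessory subunits rho between level and effective length was -0.63. The part of length in this difference was not tested. The 8 Ndufaf assembly factors, which build the complex without staying in it, had a median of 3.02 ± 0.55 TPM, and complex I subunits exceeded them by 3.05 ± 0.04 in log2 (8.31-fold). Here too the lower genes are longer, with a median effective length of 950.6 against 502.5 bases, and the part of length was not tested. Among the assembly factors Ndufaf8 was the highest with 7.55, 6.87 and 10.3 TPM and Ndufaf6 the lowest with 1.26, 1.13 and 1.61 TPM, just above the threshold.

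Complex II, the only complex of the chain that is encoded entirely in the nucleus and that also works in the tricarboxylic acid cycle, was the most even. Sdha, the flavoprotein, had 37.0, 36.9 and 51.0 TPM. Sdhb, the iron-sulfur protein, had 35.0, 36.8 and 48.1 TPM. Of the membrane anchors, Sdhd had 35.1, 33.2 and 44.8 TPM and Sdhc 26.1, 25.0 and 32.9 TPM. Sdhc was the lowest of the 4 in every library, and the means of the highest and the lowest gene differed 1.49-fold. Such a ratio tends to grow with the number of genes, and complex II has the fewest. Among small sets, the 5 accessory subunits of complex III spanned 1.57-fold, its 3 core subunits 1.93-fold and the 7 complex I core subunits 2.65-fold. The values of Sdha, Sdhb and Sdhd overlapped.

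In complex III the accessory subunits were higher than the nuclear core subunits without overlap. Uqcrh, the hinge protein that binds cytochrome c1, was the highest with 85.6, 82.2 and 117 TPM, followed by Uqcr11 with 68.6, 61.8 and 94.2 TPM. Uqcrc2, a core protein, was the lowest with 14.2, 13.1 and 18.7 TPM. Uqcrfs1, the Rieske iron-sulfur protein that hands electrons to cytochrome c1, had 19.1, 19.4 and 25.0 TPM, and Uqcrc1 had 26.6, 28.4 and 33.9 TPM. The 5 accessory subunits lay between 60.6 and 94.9 TPM on average, and the median core subunit was lower than the median accessory subunit by -1.77 ± 0.12 in log2. Here too the accessory genes are the shorter ones, with a median effective length of 311 against 1437 bases. Cyc1, the cytochrome c1 gene that the naming rule does not take, was below Uqcrc2 in each library, with 10.04, 11.3 and 14.1 TPM. It is not part of the core median given here.

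Complex IV held the most abundant member and 7 of the 8 undetected ones. Cox4i1, the largest nuclear subunit and a site of regulation by ATP, was the highest of all 94 members with 202, 193 and 271 TPM. Cox8a was the next of complex IV, after Atp5b of complex V, with 134, 103 and 162 TPM. The 11 ubiquitous subunits, among them Ndufa4, which was first assigned to complex I, had a median of 91.3 ± 20.8 TPM. Cox7b was the lowest of them with 23.8, 19.4 and 38.1 TPM, which is 8.19-fold below Cox4i1 by the means.

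In each complex IV family that has a tissue isoform, the ubiquitous gene was the higher in 3 of 3 libraries, and the partner was at or near 0 in all families but COX6A and COX7A. Cox8b, an isoform of heart, skeletal muscle and brown fat, had 0 counts in each library, so Cox8a was at least 412-fold higher per length (with a floor of 3 counts in each library). Cox8c, a testis isoform, also had 0 counts in each library, for which the bound is at least 675-fold. Cox7b2, another testis gene, had 0 counts, against 23.8, 19.4 and 38.1 TPM for Cox7b, at least 170.0-fold. Cox4i2, the isoform of lung and of hypoxic cells, had 1, 0 and 0 counts, for a Cox4i1 to Cox4i2 ratio per length of 27111 with an exact 95% Poisson interval of 4866 to 1070821. This ratio is for the alignment-based counts: in the alignment-free tables Cox4i2 had 3, 4 and 0 counts against 11738, 8971 and 9225 for Cox4i1, and the difference in log2(TPM + 0.1) was 9.13 ± 0.42 there, against 11.01 ± 0.35. Cox6b2 of testis had 0, 1 and 0 counts, and the ratio of Cox6b1 to it was 7446 (1336 to 294084). Ndufa4l2, which hypoxia induces in many cells, had 1, 0 and 0 counts, and Ndufa4 exceeded it by a ratio of 7894 (1417 to 311799). The other pairs with a partner at or near 0 also had smaller log2(TPM + 0.1) differences in the alignment-free tables. They were 8.44 against 10.35 for Cox8b, 8.555 against 10.35 for Cox8c and 8.30 against 9.96 for Cox6b2. For Ndufa4l2 the difference was 7.34 against 9.03, and for Cox7b2 6.66 against 8.03. With a partner at or near 0, such a difference depends on the pseudocount and on the TPM of the first gene. By alignment that for Cox8b was 7.04 with a pseudocount of 1 and 13.675 with 0.01. Cox8a had 4785, 2931 and 3600 counts in the alignment-free tables, against 4591, 2781 and 3364. The smaller differences alone therefore do not show smaller isoform ratios. The intervals and floors allow for counting error alone: without molecular identifiers, reads may be copies of the same molecule.

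The other 2 muscle isoforms were measurable. Cox6a2 had 30, 22 and 22 counts, which is 0.63, 0.59 and 0.78 TPM, below the threshold in every library. Its partner Cox6a1 had 93.0, 91.1 and 127 TPM, a difference of 7.07 ± 0.09 in log2 (6.27 ± 0.12 in the alignment-free tables, where Cox6a2 had 45, 32 and 39 counts), and Cox6a2 made up 0.64 ± 0.03% of the family's TPM. Cox7a1, the heart and muscle partner of Cox7a2, had 74, 50 and 48 counts and 3.96, 3.44 and 4.14 TPM, so it passed the threshold. Cox7a2 had 39.1, 34.4 and 55.5 TPM, a difference of 3.42 ± 0.25 in log2, and Cox7a1 made up 8.41 ± 1.27% of the family's TPM. The defining markers of skeletal muscle and heart (Ckm, Acta1, Actc1, myosin heavy chains and others) summed to 0.05, 0.09 and 0.13 TPM in replicates 1, 2 and 3. The coding sequences of these pairs are 55.7 to 69.0% identical, and their longest shared run of bases is 28 (Ndufa4 and Ndufa4l2).

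**Figure D2:**
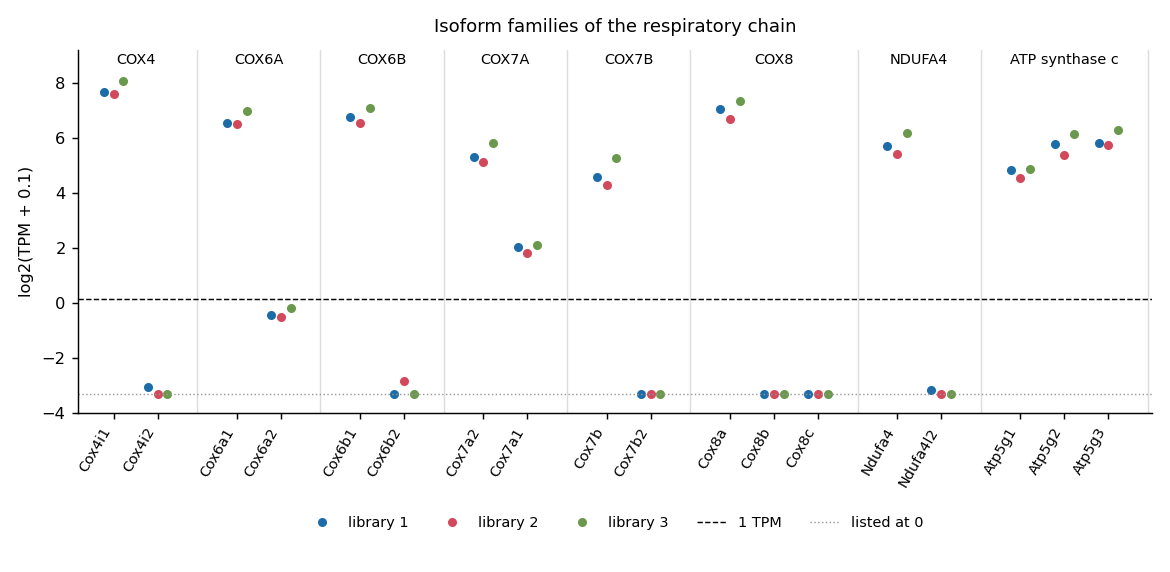
Levels of the isoform families as log2(TPM + 0.1), with 1 point per library. The dashed line marks 1 TPM and the dotted line a value listed at 0. Cox7a1 is the only tissue isoform above the dashed line, and Atp5g1 is the lowest of the 3 subunit c genes of ATP synthase in every library.

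By gene TPM the highest ATP synthase subunit was Atp5b, the catalytic beta subunit, with 149, 142 and 193 TPM, of which 56.1 ± 4.9% lay on its coding transcript. Atp5l, the g subunit of the membrane part that takes part in forming synthase dimers, had 114, 98.0 and 154 TPM. On coding transcripts alone the order turned, with 112, 96.1 and 150 TPM for Atp5l-201 and 82.1, 86.9 and 100.0 TPM for Atp5b-201. The 5 subunits of the F1 head had a median of 89.0 ± 11.6 TPM, and the 11 detected subunits of the membrane part and stalk one of 55.9 ± 14.8 TPM. Atp5a1, the alpha subunit that forms the head together with beta, had 79.1, 86.1 and 102 TPM, below the gene TPM of Atp5b in each library. Its coding transcript Atp5a1-201 had 78.7, 85.2 and 100.2 TPM, which overlaps with Atp5b-201, and was the higher of both in replicate 3. The lowest were Atp5g1 with 28.7, 23.3 and 28.9 TPM and Atp5o, the stalk subunit OSCP, with 37.9, 34.3 and 52.1 TPM. These do not overlap.

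The rotor ring is built from subunit c, which 3 genes encode. They differ in the presequence for import and give the same mature protein. The last 225 coding bases (75 codons) of the most abundant coding transcript of each gene, from GENCODE M21, are shown because they are what the 3 mRNAs share. They translate to the same amino acids in all 3 genes, and capitals mark the 57 positions at which the 3 genes do not all carry the same base.
Atp5g1: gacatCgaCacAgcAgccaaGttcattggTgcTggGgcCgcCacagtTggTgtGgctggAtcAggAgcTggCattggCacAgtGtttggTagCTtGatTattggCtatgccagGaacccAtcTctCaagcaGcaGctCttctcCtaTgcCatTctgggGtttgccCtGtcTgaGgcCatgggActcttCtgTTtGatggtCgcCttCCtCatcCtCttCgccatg
Atp5g2: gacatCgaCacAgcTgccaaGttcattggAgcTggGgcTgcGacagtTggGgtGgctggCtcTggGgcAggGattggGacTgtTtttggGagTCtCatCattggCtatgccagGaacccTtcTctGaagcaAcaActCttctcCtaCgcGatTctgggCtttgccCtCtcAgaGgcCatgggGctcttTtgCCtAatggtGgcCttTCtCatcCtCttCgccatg
Atp5g3: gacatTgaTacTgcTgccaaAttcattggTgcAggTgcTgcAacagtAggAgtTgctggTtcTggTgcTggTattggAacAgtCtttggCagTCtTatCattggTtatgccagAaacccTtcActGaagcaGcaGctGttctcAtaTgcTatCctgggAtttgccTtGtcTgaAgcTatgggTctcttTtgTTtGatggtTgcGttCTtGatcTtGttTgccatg
In this stretch Atp5g1 differs from Atp5g3 at 45 bases and Atp5g2 at 48.

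Atp5g3 had 55.8, 53.7 and 77.3 TPM and Atp5g2 had 55.2, 41.5 and 71.0 TPM. Atp5g1 was the lowest of the 3 in every library and made up 18.8 ± 2.22% of the family, against 38.2 ± 2.77% for Atp5g2 and 43.0 ± 2.72% for Atp5g3. Atp5g3 exceeded Atp5g1 by 1.19 ± 0.23 in log2. Atp5g2 was below Atp5g3 in 3 of 3 libraries, by -0.17 ± 0.18 in log2, which is within the spread. In the alignment-free tables that difference was -2.71 ± 0.55, beyond the spread. The value of Atp5g2 depends on the quantification, as described below: there the difference to Atp5g1 turned from 1.02 ± 0.24 to -1.52 ± 0.72.

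Lists of related nuclear genes had lower medians than the members, apart from the list of carriers, uncoupling proteins and porins. The mitochondrially encoded subunits, described at the end, had a higher median. Detected genes of the nuclear lists were longer, with median effective lengths of 1345 to 2277 bases, against 510 for the detected members. The part of length in these differences was not tested. Of 40 assembly factors outside the members 35 were at 1 TPM or more in every library, with a median of 5.27 ± 0.95 TPM. Cox17, the copper chaperone of complex IV, was the highest with 51.2 ± 3.83 TPM and Coa5, another complex IV factor, had 22.6 ± 4.14 TPM. Pet117, a complex IV assembly factor, had 0 counts in each library, and Lyrm7, which helps to insert the Rieske protein, had 0.19 ± 0.11 TPM. Of 22 electron carriers, ubiquinone synthesis genes and other ubiquinone reductases (Cyc1 of complex III is counted among them) 18 passed, with a median of 5.60 ± 0.90 TPM, led by both parts of the electron transfer flavoprotein, Etfb with 29.5 ± 3.83 TPM and Etfa with 15.1 ± 4.14 TPM. Prodh, proline dehydrogenase, and Pdss1, which makes the ubiquinone tail, were below 1 TPM, at 0.68 ± 0.18 and 0.84 ± 0.18 TPM. All 14 tricarboxylic acid cycle genes passed, with a median of 18.7 ± 3.36 TPM, Mdh2 (36.8 ± 4.14 TPM) and Cs (27.1 ± 4.42 TPM) being the highest.

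Of 10 adenine nucleotide and phosphate carriers, uncoupling proteins and porins 7 passed, with a median of 59.3 ± 4.53 TPM. Ucp2, the uncoupling protein of immune cells, had 195, 210 and 357 TPM, above every member in replicates 2 and 3 and above all but Cox4i1 in replicate 1. Slc25a5, an ADP/ATP carrier, had 111 ± 31.6 TPM. The muscle and brown fat genes Ucp3 (1, 3 and 3 counts) and Ucp1 (1 count in each library) were at 0.02 and 0.01 TPM. Among 17 regulators of respiratory genes 12 passed, with a median of 4.46 ± 0.74 TPM. Chchd2, a mitochondrial protein that also acts on transcription, had 64.0 ± 12.5 TPM and Yy1, a zinc finger factor, had 8.39 ± 1.78 TPM. Ppargc1a, the coactivator that drives mitochondrial biogenesis in muscle and brown fat, had 8, 2 and 3 counts (0.04 ± 0.06 TPM), and its relative Ppargc1b had 0.75 ± 0.06 TPM. The nuclear receptors Esrrb and Esrrg had 0 counts in each library.

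For most members nearly all of the level lay on transcripts annotated as protein coding. Over the 78 detected members with 2 or more transcripts the median coding share of TPM was 98.6%, and 60 of them (76.9%) reached 90%, against 69.5% of 8437 such coding genes. In 4 members (5.1%, against 4.5%) the coding share was under 50%. Ndufa5, an accessory subunit of complex I, was the lowest with 21.2 ± 8.7%, and the annotated processed transcript Ndufa5-204 alone carried 20.1, 18.9 and 21.4 TPM. Ndufs4, an accessory subunit needed for a stable complex I, had 27.7 ± 4.3%, with most of the rest on Ndufs4-202, a transcript annotated for nonsense-mediated decay with 6.77, 7.47 and 10.5 TPM. Atp5j, coupling factor 6 of the ATP synthase stalk, had 39.2 ± 3.6%, and its retained-intron transcript Atp5j-208 had 26.7, 21.5 and 41.2 TPM. Ndufab1, the mitochondrial acyl carrier protein that is also a complex I subunit, had 42.3 ± 6.0%, with 1 of its retained-intron transcripts at 7.17, 5.16 and 16.5 TPM.

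These shares are per length, and short transcripts weigh more in TPM than in counts. On the count scale 1 member (1.3%) was under 50%, Ndufa5 with 30.8 ± 7.6%, against 2.5% of such coding genes. There Ndufs4 had 51.1 ± 3.4%, Atp5j 55.1 ± 3.8% and Ndufab1 73.5 ± 6.6%. The largest gap was in Atp5b, with 56.1 ± 4.9% of TPM and 89.4 ± 1.9% of counts on the coding transcript. Its processed transcript Atp5b-206, annotated with a length of 478 bases, had 53.6, 44.2 and 79.5 TPM from 1447, 938 and 1312 counts, while the coding transcript Atp5b-201 had 82.1, 86.9 and 100.0 TPM from 14417, 11861 and 10058 counts.

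The promoters of respiratory genes are known for sites of NRF1, of the ETS factor GABP, of YY1 and of the ERR receptors, so RefSeq promoter windows (build GRCm38.p6, 250 bases before to 50 bases after the start) were searched on both strands. A window was found for 76 of 93 member symbols, 73 of them detected. The NRF1 motif, GCGCA and GCGC with any base between them, was present in 19 of the 73 (26.0%), against 13.3% of 7411 detected coding genes and 5.2% of 27025 genes with a window. The YY1 motif AAGATGGC was present in 11 (15.1%), against 6.2% and 3.2%. The ETS motif CCGGAAG, at 18 members (24.7%), stood beside 23.2% of detected genes and 9.9% of all genes. The ERR motif TCAAGGTCA was in 2 members, Sdhd and Atp5g3 (2.7% against 0.3% and 0.5%). The SP1 motif GGGCGG was in 45.2% of the detected members and in 70.8% of the detected genes. The CRE motif TGACGTCA was in 5.5% against 3.8% and the TATA motif TATAAA in 6.8% against 8.4%. At least 1 of the NRF1, ETS and YY1 motifs was in 41 of 73 detected members (56.2%), against 37.2% of detected genes. It was in 0 of the 3 undetected isoforms with a window, Cox6b2, Cox7b2 and Cox8b. No share over undetected genes was taken for this count. Over all genes the single motifs were in 5.2, 9.9 and 3.2%, so 0 of 3 does not set these isoforms apart. A match of letters is a description of the window and not a site.

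Windows are shown for members with several of these motifs (Sdhd, Atp5g3 and Atp5k) and for 2 pairs of a detected and an undetected isoform (Cox6b1 with Cox6b2 and Cox8a with Cox8b). Capitals mark matches to the NRF1, ETS, YY1, ERR and TATA motifs on either strand.
Sdhd, chr9:50603800-50604099, minus strand: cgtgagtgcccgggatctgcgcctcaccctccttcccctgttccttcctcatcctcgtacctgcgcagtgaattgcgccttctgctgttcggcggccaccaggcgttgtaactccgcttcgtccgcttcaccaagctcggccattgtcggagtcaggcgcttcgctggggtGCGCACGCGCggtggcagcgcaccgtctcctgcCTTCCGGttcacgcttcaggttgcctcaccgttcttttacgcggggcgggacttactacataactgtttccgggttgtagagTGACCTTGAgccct
Atp5g3, chr2:73911277-73911576, minus strand: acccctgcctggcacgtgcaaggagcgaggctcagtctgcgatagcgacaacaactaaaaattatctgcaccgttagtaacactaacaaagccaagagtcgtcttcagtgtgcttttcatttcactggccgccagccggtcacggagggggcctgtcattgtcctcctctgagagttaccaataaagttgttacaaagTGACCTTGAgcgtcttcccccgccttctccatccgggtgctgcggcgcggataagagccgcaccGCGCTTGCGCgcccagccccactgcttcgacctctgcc
Atp5k, chr5:108434350-108434649, minus strand: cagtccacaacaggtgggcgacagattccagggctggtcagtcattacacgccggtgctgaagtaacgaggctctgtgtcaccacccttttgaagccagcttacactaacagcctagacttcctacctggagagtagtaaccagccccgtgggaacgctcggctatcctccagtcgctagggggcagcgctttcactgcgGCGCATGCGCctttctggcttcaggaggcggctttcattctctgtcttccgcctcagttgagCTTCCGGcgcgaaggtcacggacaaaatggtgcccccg
Cox6b1, chr7:30626065-30626364, minus strand: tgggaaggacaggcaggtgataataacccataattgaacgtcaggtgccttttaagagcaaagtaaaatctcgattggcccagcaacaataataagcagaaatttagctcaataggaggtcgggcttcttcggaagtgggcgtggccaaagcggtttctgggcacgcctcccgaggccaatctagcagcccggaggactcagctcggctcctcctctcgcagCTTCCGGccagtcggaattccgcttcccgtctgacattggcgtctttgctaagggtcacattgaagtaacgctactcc
Cox6b2, chr7:4753045-4753344, minus strand: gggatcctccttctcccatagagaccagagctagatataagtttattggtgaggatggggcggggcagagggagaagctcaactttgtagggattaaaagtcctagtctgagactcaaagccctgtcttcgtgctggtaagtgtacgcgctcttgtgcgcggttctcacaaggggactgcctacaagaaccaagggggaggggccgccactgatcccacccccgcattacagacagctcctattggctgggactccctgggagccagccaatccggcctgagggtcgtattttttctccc
Cox8a, chr19:7217567-7217866, minus strand: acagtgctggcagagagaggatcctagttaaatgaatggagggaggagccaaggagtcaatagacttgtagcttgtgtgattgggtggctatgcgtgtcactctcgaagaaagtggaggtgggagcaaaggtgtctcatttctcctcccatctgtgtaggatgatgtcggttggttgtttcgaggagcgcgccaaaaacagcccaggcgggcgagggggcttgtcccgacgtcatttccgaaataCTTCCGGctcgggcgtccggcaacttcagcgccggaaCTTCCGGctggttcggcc
Cox8b, chr7:140900397-140900696, minus strand: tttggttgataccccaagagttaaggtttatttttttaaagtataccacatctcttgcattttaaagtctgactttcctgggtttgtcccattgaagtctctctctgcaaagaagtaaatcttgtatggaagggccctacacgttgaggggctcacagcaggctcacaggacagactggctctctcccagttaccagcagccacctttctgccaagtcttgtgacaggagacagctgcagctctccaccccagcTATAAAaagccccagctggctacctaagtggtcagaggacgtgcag
The Sdhd window holds an NRF1, an ETS and an ERR match, that of Atp5g3 an ERR and an NRF1 match, and that of Atp5k an NRF1 and an ETS match. Cox6b1 has a single ETS match and Cox8a a pair of them. The window of Cox6b2 holds none of the 5 motifs, and that of Cox8b holds the TATA motif only.

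Between the libraries the members deviated together by a small amount. On the log2 CPM scale (with TMM factors) the median member deviated from the mean of the 3 libraries by 0.04 in replicate 1, -0.12 in replicate 2 and 0.09 in replicate 3, where the median of all 12744 genes in the fit was 0.00 in each. Without replicate 2 the medians of replicates 1 and 3 were -0.01 and 0.01. Of the 87 members in the fit 75 (86.2%) had their lowest value in replicate 2, against 39.7% of all genes. The median SD of a member over the libraries was 0.123, where that of all genes in the fit was 0.127 and that of nuclear coding genes 0.115. Subunits with short mRNAs deviated further: the median deviation in replicate 2 was -0.22 for the 11 ubiquitous complex IV subunits and -0.20 for the 5 accessory subunits of complex III, but -0.06 for the complex I core and -0.05 for the complex III core.

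Other short coding genes deviated in the same direction. In replicate 2 the median was -0.16 for 43 members and -0.15 for 275 other nuclear coding genes with an effective length under 500 bases, and -0.13 for 24 members and -0.08 for 1076 others between 500 and 1000 bases. Between 1000 and 2000 bases it was -0.05 for 16 members and -0.02 for 3055 others. Only 4 members were longer, with 0.03 against 0.01 for 6804 others. In each range below 2000 bases members had their lowest value in replicate 2 more often than the others did. From the shortest range up, this held for 38 of 43, 24 of 24 and 12 of 16 members, against 61.8, 60.5 and 45.0% of others. Above 2000 bases it held for 1 of 4 members, against 35.3% of others. Of 5 neutrophil markers in the fit 4 were highest in replicate 2, with a median deviation of 0.53, while Mmp8 was lowest there (-0.15), and mitochondrially encoded subunits were high in replicates 1 and 2 and low in replicate 3 (0.21, 0.32 and -0.57, 12 of 13 genes in the fit). The part of transcript length or of these other genes in the shift of the members was not tested.

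**Figure D3:**
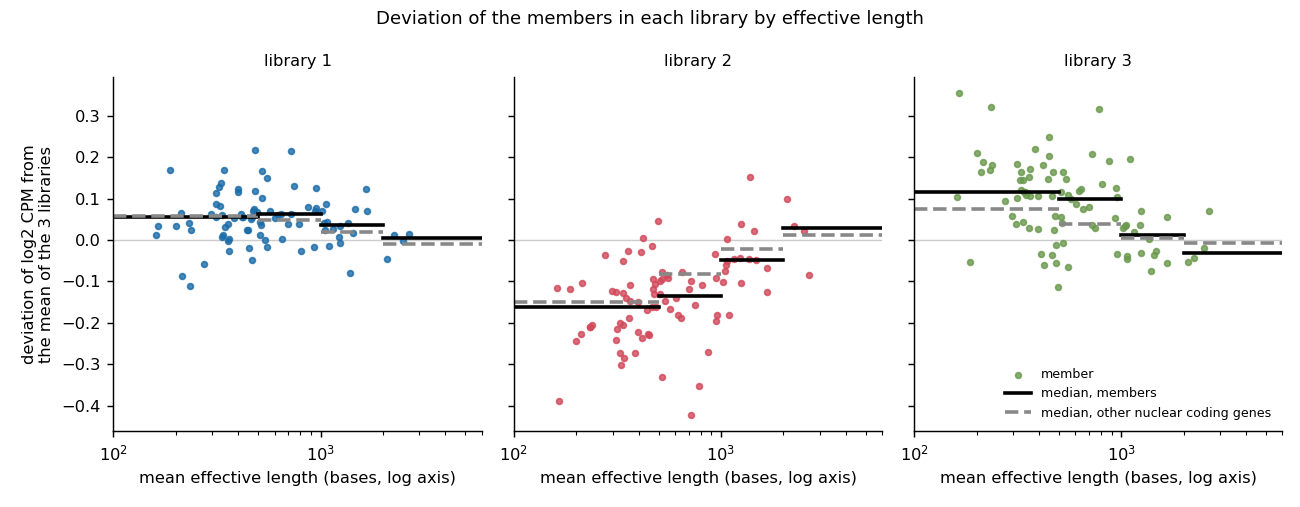
Deviation of log2 CPM from the mean of the 3 libraries against mean effective length (log axis), with 1 panel per library and 1 point per member. Solid lines are medians of members and dashed lines medians of other nuclear coding genes in 4 length ranges. In replicate 2 both medians are below 0 for short genes, at -0.16 and -0.15, and close to 0 above 2000 bases.

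Few members differed by more than 1.5-fold between any libraries, and the counts above 0 lay near the share over all genes. Among the 84 members with a mean count of 100 or more, 1 (1.19%) was past that fold lower in replicate 2 than in replicate 1. This was Ndufb4, where 1.14% of 10345 genes were past it, and 0 were higher, where 3.72% of genes were. Between replicates 3 and 1 the counts were 0 higher and 0 lower, against 1.58 and 1.09% of genes. Replicate 3 exceeded replicate 2 for 3 members (3.57%), Atp5k, Cox7b and Ndufb4, against 3.07% of genes, and was lower for 0, against 4.7%. With 1 library against 1 these are counts past a fold, with no test. Without replicate 2 no member was past the fold (0), and without replicate 3 only Ndufb4 was (1). The largest SD was that of Atp5k, the e subunit that sits beside Atp5l in the membrane part, at 0.37 with 4.42, 4.0 and 4.74 log2 CPM. Ndufb4 followed with 0.36 (3.51, 2.87 and 3.50), Cox7b with 0.34 (5.20, 4.81 and 5.48), Atp5g2 with 0.29 (5.81, 5.32 and 5.81) and Ndufa3 with 0.28 (4.65, 4.55 and 5.08). Replicate 2 was the lowest for each of these 5 genes. The most abundant long subunits were steady, with an SD of 0.05 for Atp5b and 0.04 for Atp5a1.

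The deposited quantifications gave similar counts per gene for nearly all members. The ratio of alignment-free to alignment-based counts had a median of 1.08 over 84 members, and 82 of them (97.6%) lay between 1.0 and 1.2, against 93.8% of 9915 coding genes. The highest ratios were 1.2 for Ndufaf7, 1.17 for Ndufa12 and 1.16 for Ndufaf5. The lowest were 0.19 for Atp5g2, 1.00 for Ndufb4 and 1.05 for Uqcrfs1. Atp5g2 (chr15:102662864-102672352, minus strand, mm10) had 2924, 1720 and 2220 counts by alignment and 416, 254 and 619 without it.

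**Figure D4:**
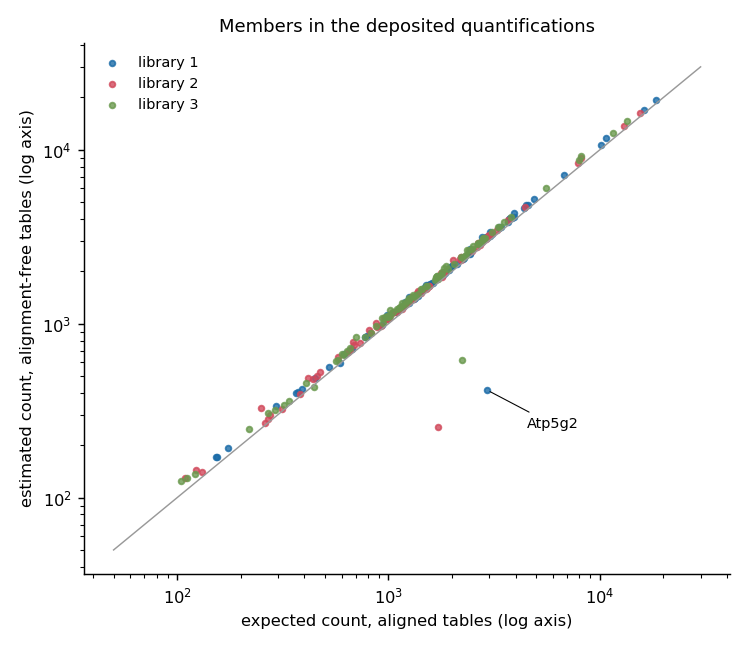
Estimated counts of the alignment-free tables against expected counts of the alignment-based tables, both on log axes, for members with a mean count of 100 or more, with 1 point per member and library and a line of equality. Atp5g2 stands apart, with its 3 points below the line.

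Both members outside that range, Atp5g2 by far and Ndufb4 just below 1.0, have a processed copy elsewhere in the genome. Gm10175, a transcribed processed pseudogene at chr7:23946646-23947290 on the minus strand, matches Atp5g2 at 100.0% over 645 bases. It had 606, 433 and 529 counts by alignment and 3231, 1991 and 2328 in the alignment-free tables, so it was higher in the tables in which Atp5g2 was lower. Ndufb4 (chr16:37647170-37654453, minus strand) is matched at 100.0% over 390 bases by Ndufb4c, a processed pseudogene at chr15:73809507-73809896 on the minus strand. Ndufb4c had 603, 377 and 470 counts, as many as the 589, 314 and 446 of Ndufb4, and 33.3, 26.4 and 41.1 TPM. The low level and high spread of Ndufb4 and the level of Atp5g2 are therefore uncertain. In all, 16 members had a copy of at least 97% identity over at least 200 bases. Apart from these, the largest copy count was that of Gm15920, a copy of Ndufa12, with 39, 30 and 36 counts against 988, 678 and 702.

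Of the 94 members 41 overlap another annotated gene, 33 of them a gene on the opposite strand. The sources used here do not say whether reads were counted by strand, and reads of such neighbours cannot be told apart with certainty. Cox4i1 overlaps Gm20388 on the same strand (3417, 3126 and 2349 counts, against 10644, 8175 and 8118 for Cox4i1). Atp5j overlaps Gabpa, which encodes the DNA-binding part of GABP, on the opposite strand (2646, 1851 and 2029 counts, against 2030, 1376 and 1684). Ndufb2 overlaps Braf, with 4403, 3910 and 3402 counts, and Ndufs1 overlaps Eef1b2, with 7021, 4794 and 5272 counts, both on the opposite strand. The low-count isoform Cox6a2 (30, 22 and 22 counts) overlaps Itgad on the opposite strand, with 11, 15 and 7.1 counts. The part of Itgad reads in the level of Cox6a2 was not tested.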

How the data were processed

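Total RNA of the macrophages' cytosolic fraction, depleted of ribosomal RNA, was sequenced in 3 libraries, with 1 µg of starting RNA and a size range of 250 to 400 per the labels, without a unit. The labels name the assembly mm10. The gene models match GENCODE M21. The sources used here do not give the aligner, tool versions or strandedness. The authors deposited expected counts and TPM per gene and per transcript in the columns that RSEM writes, and estimated counts and TPM per transcript in the columns that kallisto writes, per the file headers. The other deposited columns used are effective lengths and posterior counts with their SD.

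From these values, levels were taken as gene TPM, log2(TPM + 0.1) was used for differences within libraries, and genes at 1 TPM or more in every library were called detected. Expected counts were rounded, filtered with filterByExpr (12744 genes) and put on the log2 CPM scale by TMM normalization (edgeR 4.0.16 under R 4.3.3, prior count 2); this step was tested on simulated data. Rows that are no annotated gene (0.19, 0.17 and 0.04% of counts) were left out. Alignment-free values were summed to genes. Copies were found with blastn 2.17.0 over the reference transcripts. Promoter windows come from RefSeq.

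Members may be named, except 1 item that is not reported here singly and stays in the counts and medians. Given in full are isoform families, the 2 highest and 2 lowest subunits per complex, undetected members, the 5 most variable, the 3 largest ratios between quantifications per direction, members under 50% on coding transcripts and, per pathway list, the 2 highest and up to 2 undetected genes. Alternatives changed the threshold, pseudocount, filter, normalization (DESeq2 size factors among them), quantification, transcripts counted and libraries used. The members and lists were chosen with earlier results of these data known.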

Additional observations from a re-analysis of the deposited data

How the results depend on the processing

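No paired analysis was possible because the libraries form a single group. Detected members numbered 77 to 87 over all settings, against 86, with 77 both at 5 TPM and in the alignment-free tables. The alignment-free counts had a median ratio of 1.08 to the alignment-based ones over 84 members. A TPM of 1 therefore need not mark the same level in both quantifications. The level of the members over all detected genes (2.28 in log2) was 2.15 with a pseudocount of 1, 2.09 in the alignment-free tables, 1.75 with means in place of medians and 6.92 without the 1 TPM filter, under which the median coding gene is at 0.17 TPM. In the alignment-free tables complex I was at -0.53 relative to all subunits and its core at -0.33 relative to its accessory subunits. On protein-coding transcripts alone complex II turned to 0.013, complex IV was at 1.07, complex V at 0.61 and the complex I core at -0.19. These changes alter the order of the complexes, as the next 2 settings do. With means, complexes I, III, IV and V were at -0.55, 0.20, 0.63 and 0.71 and the complex I core at -0.50. Without the filter, complex I was at -0.58, complex II turned to 0.025, complex III was at 0.67 and complex IV, with its undetected isoforms, at 0.16. The median shift of replicate 1 ranged from -0.01 to 0.09 when a replicate was left out, turning at -0.014 without replicate 2, and that of replicate 2 ranged from -0.16 to -0.09 over all settings. Members past the fold in any pair of libraries numbered 24 at the lower alternative fold and 0 at 2-fold, against 3, and 0 to 3 when a replicate was left out. Isoform pairs kept their direction under every setting except Atp5g2 and Atp5g1, which turned to -1.52 in the alignment-free tables. The causes were not tested, apart from those the settings themselves set. Depth limits the undetected isoforms: bounds for those at 0 counts rest on 3 counts in a library, and ratios for those with 1 count on its Poisson interval.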

Other observations

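Genes whose symbols follow the same naming but that have no transcript annotated as protein coding were set aside by the rule. Of these 13, 2 were at 1 TPM or more in every library. Ndufb1-ps, annotated as a bidirectional promoter lncRNA at chr12:101968090-101977068 on the minus strand and named after an accessory subunit of complex I, had 24.8, 20.9 and 41.9 TPM, a level within the range of the complex I accessory subunits. Ndufb4c, the processed pseudogene that matches Ndufb4, was listed at 33.6 ± 7.36 TPM, and how many of these reads come from Ndufb4 mRNA was not tested. The other 11 were at most at 0.15 TPM on average.

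Subunits encoded by mitochondrial DNA were present in this cytosolic fraction, with 12 of 13 at 1 TPM or more in every library and a median of 290 ± 61.0 TPM. Their summed level was 5507, 6241 and 4348 TPM in replicates 1, 2 and 3, so replicate 3, in which the nuclear-encoded members were highest in TPM, was the lowest. mt-Co2, the gene of the copper-binding subunit that accepts electrons from cytochrome c, had 5, 484 and 738 counts, where mt-Co1 of the same complex had 146424, 128120 and 61407. mt-Co3 (7561, 3306 and 4984 counts) and mt-Atp6 (3419, 2477 and 5853 counts) were also out of step with mt-Co1. Nuclear copies of mitochondrial DNA share sequence with these genes, and the part of shared reads was not tested.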
